A study of Mus musculus with 20 samples.

Results

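The genes described here are the solute carriers of mouse macrophages, meaning every gene whose symbol on the array annotation is Slc followed by a number. Members of the mitochondrial Slc25 family were left out, as were the amino acid and glucose carriers Slc7a11, Slc3a2, Slc7a5, Slc7a1, Slc1a4, Slc1a5, Slc6a9, Slc38a2 and Slc2a1. This rule gave 302 genes with 556 probes, of 356 Slc genes and 19057 named genes in all. Of the 302, 150 passed the detection filter and were tested, and 86 were detected on no array. All 302 matched a mouse gene of the same symbol in RefSeq.

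Macrophages were grown from bone marrow of C57BL/6 mice for 6 days in 40 ng/ml M-CSF (macrophage colony-stimulating factor), with 10% fetal calf serum. RNA of 20 samples, 5 in each of 4 groups, was hybridised to Illumina mouse bead arrays. CD-cc cells received cholesterol crystals (200 µg for a set number of cells) for 3 h and then 10 mM hydroxypropyl-beta-cyclodextrin, a sugar ring that binds cholesterol in its core, for 6 h. CD cells received the cyclodextrin alone, cc cells the crystals alone, and con cells neither. Mice of the CD-cc, CD and cc groups are labelled as 2 to 5 months old and those of the con group as 10 to 15 months old, so labelled age and treatment cannot be told apart in any comparison with con cells. The design text names LXR-deficient mice and wild type littermates, whereas the sample labels give a strain and no genotype. How long cc and con cells stood before lysis was not given. The labels do not say whether the 5 samples of a group were separate animals or cultures, so every p-value measures the spread between these samples, part of which may be technical.

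Solute carriers are membrane proteins that move amino acids, sugars, nucleosides, metals, ions, vitamins and other small molecules down or against their gradients, mostly without splitting ATP. Macrophages place many of them in the lysosome, where cargo taken up by phagocytosis is broken down and its building blocks and metals are exported to the cytosol. Carriers of iron, zinc and copper in these cells also take part in withholding metals from microbes.

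Levels are given as log2 of the background-corrected and normalised bead signal, and a change is a difference of such levels with its standard error (SE) from a limma fit over all 10018 genes tested. A gene was called when its Benjamini-Hochberg adjusted p over all those genes was below 0.05. Because the correction adds an offset of 16 signal units, changes of dim probes are understated. Median bead signal was 86.6 to 128 per array and 33.9 to 39.5% of probes were detected. Precision is limited by how many arrays there are. The arrays formed 5 sets of 4, each with 1 array of every group, and the set was a block in the fit. Sets 1 to 3 lay on chips 1 and 5, sets 4 and 5 on chips 2, 3, 4 and 6. On chips 1 and 5 the female-specific Xist stood at 11 to 11.51 and the Y-linked Eif2s3y at 4.19 to 4.54, while on the other chips Xist stood at 4.26 to 4.45 and Eif2s3y at 10.17 to 10.90. Chip and these genes moved together on all arrays, and changes within each group of chips are therefore given beside the main values.

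Of 10 macrophage markers 9 were tested. In cc against con cells 1 of the 9 rose and 4 fell, against 12.5% and 15.2% of all genes tested. Their summed signal was 44169 to 51387 in CD-cc cells, 54705 to 60213 in CD cells, 42910 to 50552 in cc cells and 49483 to 61483 in con cells. Dendritic cell, erythroid and mast cell markers did not pass the detection filter. Of 7 neutrophil and of 6 T and NK cell markers 1 each passed, with no call in any comparison. Of 4 B cell markers 2 passed, and Cd79b, a part of the B cell receptor, fell in cc against con cells (-0.75 ± 0.161, limma adjusted p 0.00216) and in CD-cc against con cells (-0.62 ± 0.161, adjusted p 0.00727). All 6 stromal fibroblast markers passed, with sums of 557 to 2150 in CD-cc cells, 637 to 1625 in CD cells, 656 to 2260 in cc cells and 588 to 1988 in con cells and no call in cc against con cells. Of 5 osteoclast markers 2 passed, with sums of 336 to 834 in CD-cc, 163 to 626 in CD, 386 to 1111 in cc and 190 to 741 in con cells. These 2 went opposite ways in cc against con cells. Ctsk, a lysosomal protease that macrophages also make, rose (log2 1.26 ± 0.187 SE, limma adjusted p 0.000119), and Dcstamp, a cell fusion protein, fell (-0.75 ± 0.131, adjusted p 0.000494). The part of other cell types in the results below was not tested, and in such bulk samples fewer cells of a type and less RNA per cell cannot be told apart.

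Solute carriers were called in both directions between crystal-treated and untreated cells. In cc against con cells 26 of 150 tested genes rose (17.3%) and 21 fell (14%), against 12.5% of all genes tested that rose and 15.2% that fell. The largest rises were of the zinc exporter Slc30a1 (3.06-fold), the lysosomal glutamine carrier Slc38a7 (2.47-fold) and the organic cation and ergothioneine carrier Slc22a4 (2.44-fold). The largest falls were of the lysosomal membrane protein Slc46a3 (2.25-fold) and the plasma membrane sodium-calcium exchanger Slc8a1 (2.22-fold). Of the members called, 7 rose and 2 fell by at least 2-fold. No such count over all genes is given beside it, so whether these numbers were particular to members was not tested. With scale in place of quantile normalisation 14 rose and 5 fell. Without the set block 28 of the 47 calls were made. The median change of members was 0.04 and that of all genes -0.02.

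Fewer members were called for cyclodextrin without crystals. In CD against con cells 10 of 150 rose (6.67%) and 2 fell (1.33%), against 2.57% of all genes that rose and 1.56% that fell. The largest rises were of the lysosomal hexose carrier Slc2a6 (2.60-fold), the endolysosomal copper carrier Slc31a2 (2.56-fold) and the nucleoside carrier Slc28a2b (2.20-fold). The falls were of the mitochondrial sodium-calcium exchanger Slc8b1 and the iron exporter Slc40a1. The medians were -0.01 for members and -0.02 for all genes. With scale normalisation 5 rose and none fell, and without the set block 3 members were called. Leaving out con replicate 2 or 3, or CD replicate 1 or 5, lowered the count to 6 genes.

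The fewest were called for cyclodextrin after crystals. In CD-cc against cc cells 5 of 150 rose (3.33%) and 2 fell (1.33%), against 1.29% and 0.509% of all genes. The rises were of Slc31a2, the arginine carrier Slc7a2, Slc28a2b, the aromatic amino acid carrier Slc16a10 and the neutral amino acid exchanger Slc7a8. The falls were of the lysosomal cationic amino acid exporter Slc66a1 and of Slc45a3. All 7 calls were lost in the fit without the set block, and also without cc replicate 4, CD-cc replicate 4 or CD-cc replicate 5. At an unadjusted p below 0.05, 27 members passed with the block and 20 without it. Leaving out any of cc replicates 1, 2, 3 and 5, CD-cc replicates 1, 2 and 3 or CD replicate 4 left 2 to 4 calls.

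More members were called for crystals before cyclodextrin set against cyclodextrin alone. In CD-cc against CD cells 14 of 150 rose (9.33%) and 11 fell (7.33%), against 8.46% and 10.1% of all genes. Whether these shares differed was not tested. With scale normalisation 6 rose and 3 fell, without the set block 15 members were called, and without CD replicate 4 the count was 16. In CD-cc against con cells 26 rose (17.3%) and 20 fell (13.3%), against 13.7% and 18.1% of all genes, and 29 were called without the set block. The leading changes there were a 3.56-fold rise of Slc2a6, a 2.94-fold rise of Slc7a2 and a 4.07-fold fall of Slc46a3. Medians of members were 0.02 in CD-cc against CD cells and 0.03 in CD-cc against con cells, and those of all genes were -0.02 and -0.03.

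No member was called in the interaction of crystals and cyclodextrin, which tests whether the effect of crystals differed with and without cyclodextrin. The limma fit called 0.0200% of all genes as positive and 0.120% as negative there. At an unadjusted p below 0.05, 8 of 150 members passed, with a lowest adjusted p of 0.857. That is near the number that chance alone gives at this threshold. The lowest unadjusted p was that of Slc11a2 (interaction -0.73 ± 0.246 SE, p 0.00880 in limma, adjusted p 0.857). A p above the threshold does not show that the effects were equal.

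**Figure D1:**
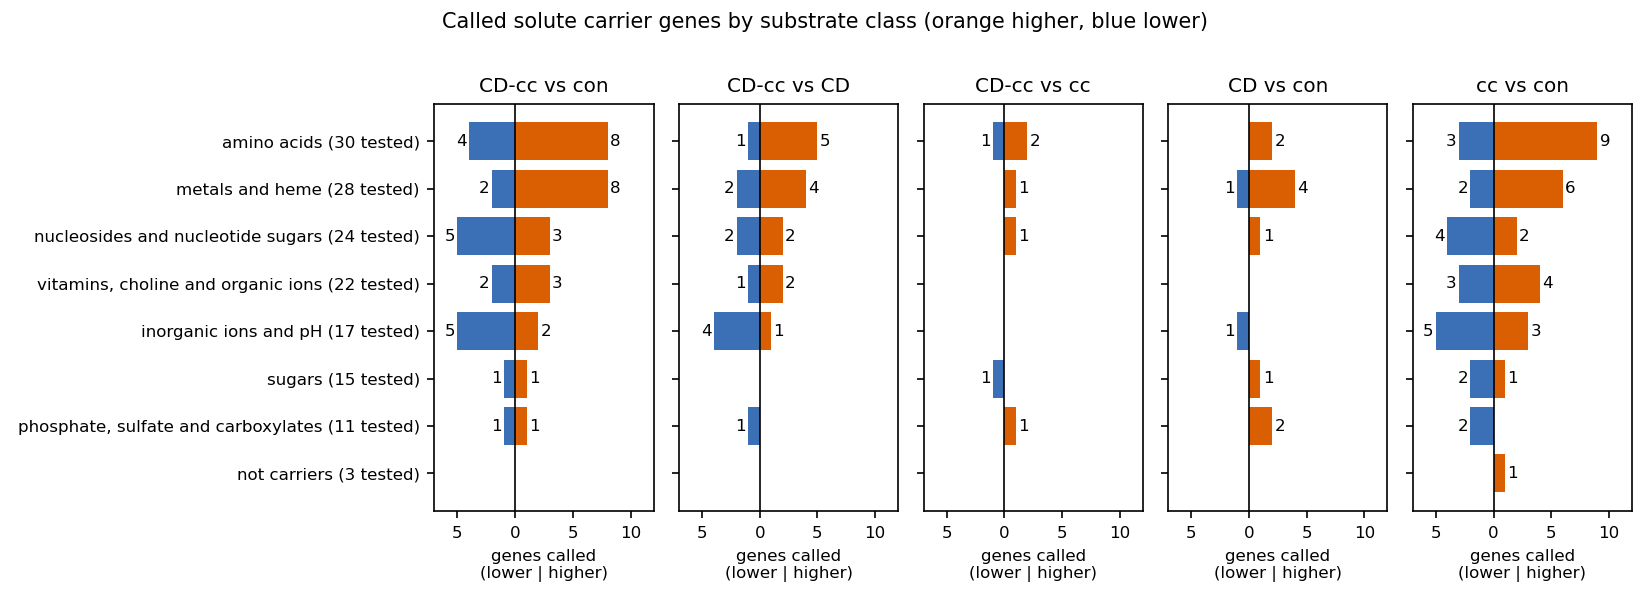
Number of solute carrier genes called in each substrate class, for 5 comparisons; bars to the right of 0 count genes higher in the group named first, bars to the left genes lower in it. Amino acid carriers had 9 higher and 3 lower genes in cc against con cells, and inorganic ion carriers 3 higher and 5 lower.

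The comparison of cc with con cells and that of CD-cc with CD cells share no samples, though they share the sets used as blocks. Of the 26 members that rose in the first, 14 (53.8%) also rose in the second, all 14 of those called higher there (100%). Of the 21 that fell in the first, 11 (52.4%) also fell in the second, all 11 of those called lower there (100%). All 47 had the same sign in CD-cc against CD cells. Over all genes tested, 56.7% of those that rose and 50.9% of those that fell in the first were called the same way in the second, which were 83.8% and 76.5% of its calls, and 97.9% of all called in the first had the same sign. The members' shares of the first comparison were thus near those of all genes. The comparison of CD with con cells and that of CD-cc with cc cells also share no samples, but share sets and spread in the same way. Of 10 rises in the first, 4 (40%) were called in the second, which were 4 of its 5 (80%), namely Slc16a10, Slc28a2b, Slc31a2 and Slc7a2. Of 2 falls in the first and 2 in the second, 0 were shared. All 12 changes of the first kept their sign in the second. Over all genes, 27.6% of the rises in the first were called in the second (55% of its rises). Of the falls in the first, 8.33% were called in the second (25.5% of its falls). Of all genes called in the first, 93% kept their sign. For 51 called changes of 22 members further probes were detected. Of these 70 probe changes 60 had the same direction, 35 of them called, and 10 the opposite direction, none called.

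**Figure D2:**
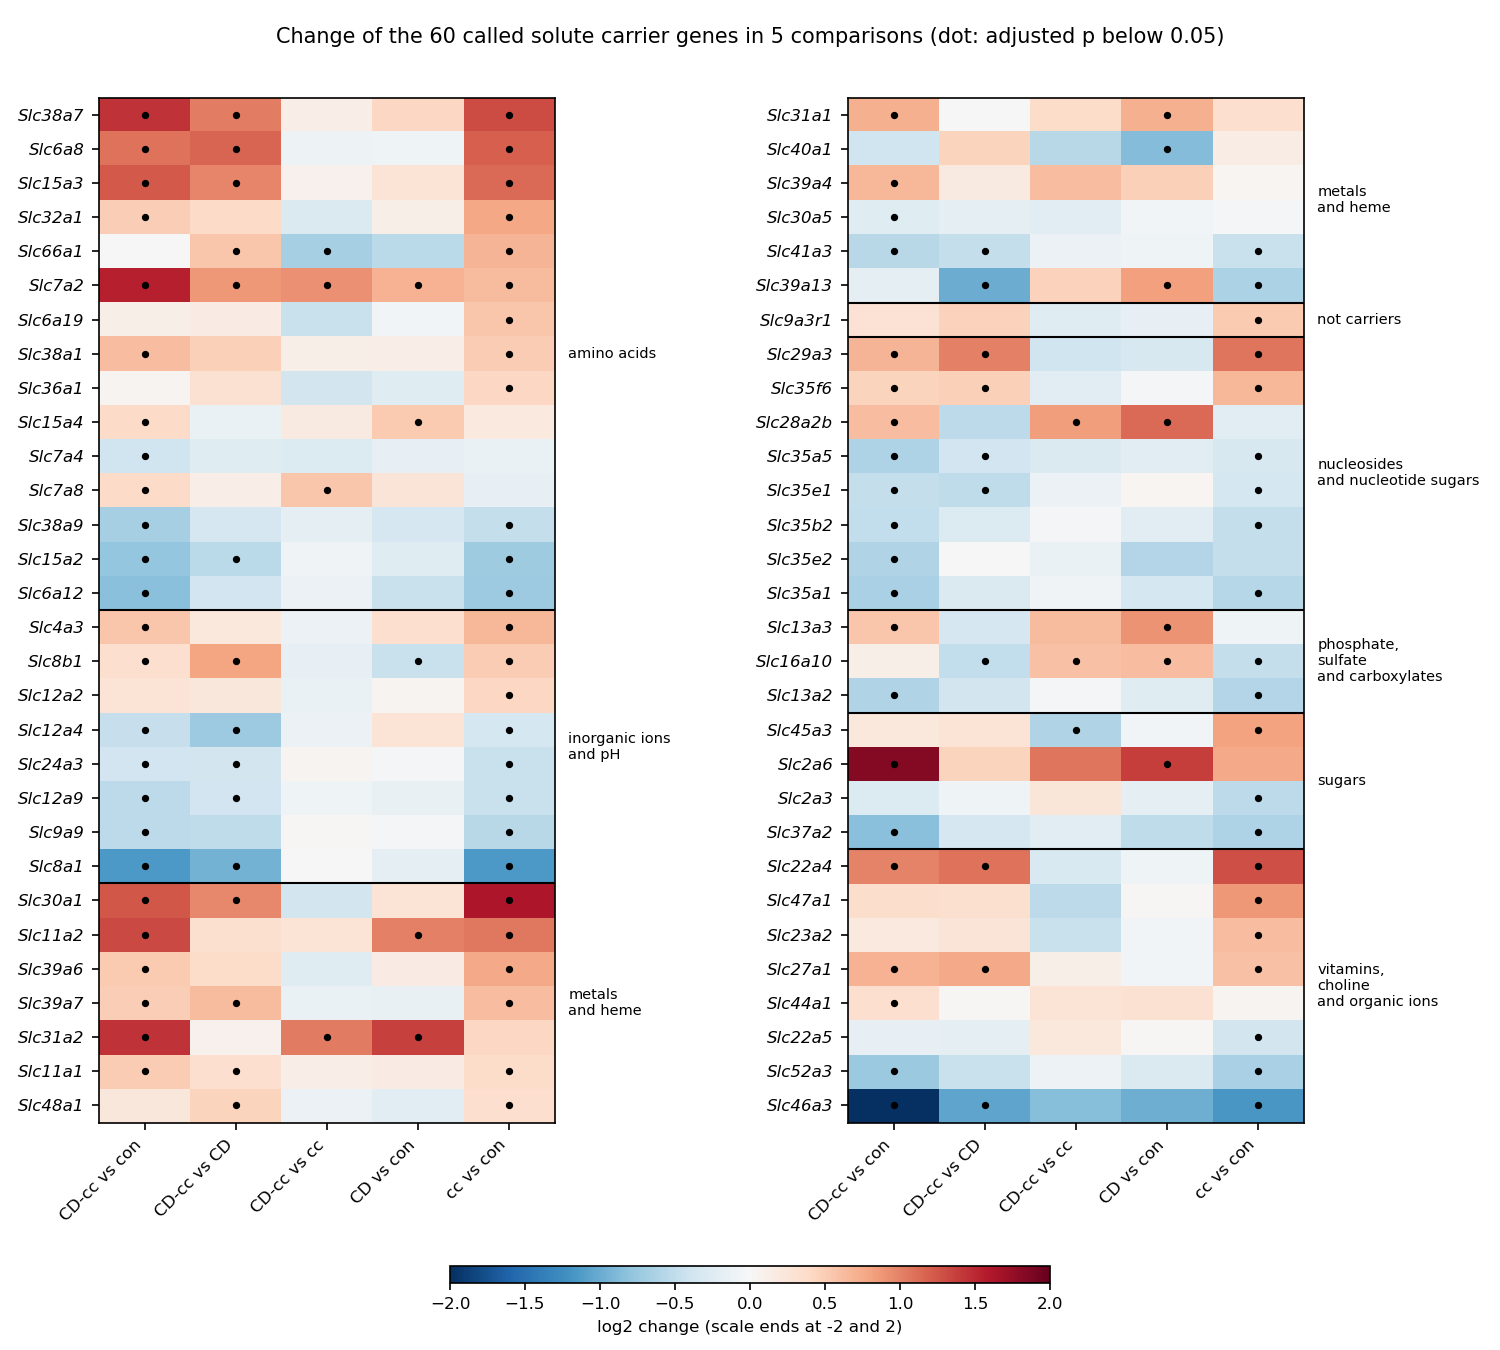
Log2 change of the 60 solute carrier genes called in at least 1 comparison, ordered by substrate class; red is higher and blue lower in the group named first, and a dot marks an adjusted p below 0.05. Columns that share a group are not independent; Slc30a1, Slc15a3 and Slc29a3 are red in both crystal comparisons, Slc31a2 in both cyclodextrin comparisons.

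Metal and heme carriers numbered 33, of which 28 were tested and included the gene with the largest rise in cc against con cells, Slc30a1. Between cc and con cells, 6 rose and 2 fell, in CD against con cells 4 rose and 1 fell, and in CD-cc against cc cells 1 rose. In CD-cc against CD cells 4 rose and 2 fell, and in CD-cc against con cells 8 rose and 2 fell. Medians over the 28 were 0.06, 0.07, -0.03, 0.04 and 0.05 in that order. Over all genes tested the share called higher was 12.5, 2.57, 1.29, 8.46 and 13.7% in the same order. The share called lower was 15.2, 1.56, 0.509, 10.1 and 18.1%. Whether this class or those below differed from these shares was not tested.

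Slc30a1 carries zinc out of the cell across the plasma membrane. In the order of the 5 sets its levels were 9.07, 8.97, 8.41, 7.75 and 7.98 in CD-cc cells and 7.88, 7.06, 7.51, 7.58 and 7.37 in CD cells. They were 9.67, 9.28, 9.07, 7.72 and 8.31 in cc cells and 7.11, 7.34, 6.90, 7.38 and 7.26 in con cells. The cc arrays all lay above the con arrays, and the CD-cc and CD arrays overlapped. The rise was log2 1.61 ± 0.256 in cc against con cells (adjusted p 0.000205) and 0.96 ± 0.256 in CD-cc against CD cells (adjusted p 0.0151). In cc against con cells it was 2.22 on chips 1 and 5 against 0.69 on the remaining chips, where it was not called alone, and the difference between the chips passed the test (adjusted p 0.0298). The call in CD-cc against CD cells was lost without the set block (adjusted p 0.0539) and without CD-cc replicate 2 or CD replicate 4 (adjusted p up to 0.0618).

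The bases before the start of 8 members with large changes, chosen after their values were seen, are shown because metal-responsive and stress-responsive factors are known to act through short motifs there. They are the 250 bases upstream of the annotated start in RefSeq, build GRCm38.p6, 5′ to 3′ on the strand of the gene. Capitals mark matches on either strand to the core of the metal response element (TGCGCNC or TGCACNC) or of the antioxidant response element (TGACNNNGC).
Slc30a1, chr1:191906531-191906780, plus strand: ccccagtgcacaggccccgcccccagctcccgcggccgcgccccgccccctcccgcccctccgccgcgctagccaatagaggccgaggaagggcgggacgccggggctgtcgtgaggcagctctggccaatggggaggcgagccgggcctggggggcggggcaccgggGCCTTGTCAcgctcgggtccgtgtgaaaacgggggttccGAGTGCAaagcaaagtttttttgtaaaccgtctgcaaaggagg
Slc2a6, chr2:27027999-27028248, minus strand: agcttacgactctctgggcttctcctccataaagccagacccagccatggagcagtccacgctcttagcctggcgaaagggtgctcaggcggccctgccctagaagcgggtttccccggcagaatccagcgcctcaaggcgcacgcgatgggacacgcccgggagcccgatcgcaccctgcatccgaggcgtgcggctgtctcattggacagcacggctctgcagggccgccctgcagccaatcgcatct
Slc39a13, chr2:91070316-91070565, minus strand: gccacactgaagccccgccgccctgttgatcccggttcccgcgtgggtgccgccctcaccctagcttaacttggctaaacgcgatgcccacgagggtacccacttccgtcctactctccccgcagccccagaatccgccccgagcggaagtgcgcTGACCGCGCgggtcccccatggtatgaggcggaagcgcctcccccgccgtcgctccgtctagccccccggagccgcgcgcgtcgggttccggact
Slc31a2, chr4:62286179-62286428, plus strand: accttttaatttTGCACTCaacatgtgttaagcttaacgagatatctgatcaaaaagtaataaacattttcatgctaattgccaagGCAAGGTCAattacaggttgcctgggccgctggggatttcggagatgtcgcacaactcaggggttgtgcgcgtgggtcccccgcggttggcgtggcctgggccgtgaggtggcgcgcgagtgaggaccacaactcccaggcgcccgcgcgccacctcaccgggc
Slc31a1, chr4:62360451-62360700, plus strand: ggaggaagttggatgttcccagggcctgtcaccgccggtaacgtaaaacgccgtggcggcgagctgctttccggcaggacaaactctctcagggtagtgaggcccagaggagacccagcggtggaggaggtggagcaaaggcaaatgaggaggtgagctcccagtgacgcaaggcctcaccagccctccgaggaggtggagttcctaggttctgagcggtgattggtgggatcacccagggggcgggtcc
Slc46a3, chr5:147894816-147895065, minus strand: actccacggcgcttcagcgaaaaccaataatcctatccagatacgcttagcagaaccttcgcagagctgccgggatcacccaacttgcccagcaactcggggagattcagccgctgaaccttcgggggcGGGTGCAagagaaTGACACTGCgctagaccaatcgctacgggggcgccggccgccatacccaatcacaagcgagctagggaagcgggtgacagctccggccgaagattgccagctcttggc
Slc29a3, chr10:60752783-60753032, minus strand: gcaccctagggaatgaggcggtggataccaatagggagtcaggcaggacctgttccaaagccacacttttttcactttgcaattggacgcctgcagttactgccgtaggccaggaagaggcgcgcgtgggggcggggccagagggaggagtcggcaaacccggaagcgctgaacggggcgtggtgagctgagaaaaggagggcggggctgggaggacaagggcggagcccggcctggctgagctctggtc
Slc8a1, chr17:81738388-81738637, minus strand: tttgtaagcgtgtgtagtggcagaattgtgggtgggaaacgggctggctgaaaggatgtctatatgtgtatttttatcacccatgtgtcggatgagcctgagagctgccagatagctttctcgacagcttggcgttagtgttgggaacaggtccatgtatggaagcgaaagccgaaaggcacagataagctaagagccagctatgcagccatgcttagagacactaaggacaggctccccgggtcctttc

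Positions are counted in bases from the start, with negative values upstream. In Slc30a1 a metal element core began at -43 and an antioxidant element core at -82. In Slc31a2 they began at -238 and -164, and in Slc46a3 at -121 and -108. Slc39a13 held an antioxidant element core at -95 and no metal element core. The stretches of Slc31a1, Slc2a6, Slc29a3 and Slc8a1 held neither. In windows of 300 bases (250 before to 50 after the start), the metal element core occurred in 33.3% of 300 windows of 235 members and in 25.7% of all 32851 windows. The antioxidant element core occurred in 12.7% of member windows and 12.4% of all windows. Such matches are common and describe the letters only.

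Slc11a2 carries ferrous iron and other divalent metals, from the endosome to the cytosol among other sites. Its levels were 9.91, 9.97, 9.86, 10.59 and 10.39 in CD-cc cells, 9.49, 9.65, 9.33, 10.29 and 10.35 in CD cells, 10.20, 10.07, 9.67, 9.51 and 9.90 in cc cells and 8.55, 8.62, 8.56, 9.35 and 9.02 in con cells. All CD-cc and all cc arrays lay above all con arrays. The change from con cells was 1.32 ± 0.174 in CD-cc cells (adjusted p 4.40e-05), 1.00 ± 0.174 in CD cells (adjusted p 0.00371) and 1.05 ± 0.174 in cc cells (adjusted p 0.000297). These contrasts share the con arrays. The rise in cc cells was 1.40 on chips 1 and 5 against 0.52 on the remaining chips, where it was not called alone. A further probe detected on 20 arrays also rose in all 3 contrasts, by 2.29, 1.58 and 1.63.

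Both copper carriers of the Slc31 family rose in CD against con cells, and only Slc31a2 was called in CD-cc against cc cells. Their genes are close neighbours on mouse chromosome 4 with 1 protein-coding gene, Fkbp15, between them. Slc31a2 had levels of 9.34, 9.06, 8.90, 9.55 and 10.12 in CD-cc cells, 8.91, 9.0, 9.25, 9.91 and 9.48 in CD cells, 8.66, 8.50, 8.81, 7.99 and 7.83 in cc cells and 8.25, 8.23, 7.70, 7.87 and 7.71 in con cells. Every CD-cc and CD array lay above every cc and con array. The change was 1.36 ± 0.252 in CD against con cells (adjusted p 0.00544) and 1.04 ± 0.252 in CD-cc against cc cells (adjusted p 0.0483). The second was 0.44 on chips 1 and 5 against 1.93 on the remaining chips (adjusted p of the difference 0.0193), and 14 of 20 refits that left out 1 array lost it (adjusted p up to 0.160). The first was 0.99 and 1.90 on these chips.

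Slc31a1, the high-affinity copper importer of the plasma membrane, had levels of 9.97, 10.48, 10.16, 10.78 and 10.93 in CD cells and 9.83, 9.84, 9.85, 9.61 and 9.65 in con cells. The groups did not overlap. It rose by 0.71 ± 0.161 (adjusted p 0.0190), by 0.36 on chips 1 and 5 against by 1.22 on the remaining chips (adjusted p of the difference 0.0246). The call was lost without the set block (adjusted p 0.0527) and without CD replicate 1 or 5 or con replicate 2 or 3 (adjusted p up to 0.0844). In CD-cc against con cells the rise was 0.71 ± 0.161 (adjusted p 0.00285). In CD-cc against cc cells the difference was 0.37 ± 0.161 (adjusted p 0.280).

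Slc39a13, which moves zinc out of vesicles and the Golgi, was lower with crystals and higher with cyclodextrin. Its levels were 8.35, 8.37, 8.28, 9.04 and 8.75 in CD-cc cells, 9.19, 9.70, 9.35, 9.74 and 9.81 in CD cells, 8.01, 8.0, 8.02, 8.31 and 8.17 in cc cells and 8.74, 8.76, 8.90, 8.68 and 8.60 in con cells. The CD arrays all lay above and the cc arrays all below the con arrays, and the CD arrays were above those of every other group. It fell by 0.63 on the log2 scale in cc against con cells (SE 0.126, adjusted p 0.00131) and by 1.00 in CD-cc against CD cells (SE 0.126, adjusted p 4.56e-05). It rose by 0.82 ± 0.126 in CD against con cells (adjusted p 0.00147), and the difference in CD-cc against cc cells was 0.46 ± 0.126 (adjusted p 0.0842). Within chips 1 and 5 and the other chips the fall in cc cells was -0.79 and -0.40 and the rise in CD cells 0.61 and 1.13. A further probe gave calls of the same sign in the 3 contrasts called.

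Slc39a6, a plasma membrane zinc importer, rose by 0.76 ± 0.125 in cc against con cells (adjusted p 0.000272), by 1.02 on chips 1 and 5 against 0.37 on the remaining chips. In CD-cc against CD cells Slc39a6 differed by 0.36 ± 0.125 and was not called (adjusted p 0.0536). Slc39a7, which releases zinc from the endoplasmic reticulum, rose by 0.62 ± 0.114 (adjusted p 0.000680), by 0.74 and 0.43 on these chips, and by 0.63 ± 0.114 in CD-cc against CD cells (adjusted p 0.000990). Both calls in cc cells were lost on chips 2, 3, 4 and 6 alone. Of the metallothioneins, which bind zinc and copper in the cytosol, Mt1 differed by 0.17 and Mt2 by 0.28 between cc and con cells, and neither passed the test (adjusted p 0.199 and 0.248).

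Among iron and heme carriers, Slc11a1, which pumps iron and manganese out of the phagosome, had levels of 13.96, 13.68, 13.77, 13.65 and 13.91 in cc cells and 13.50, 13.42, 13.22, 13.49 and 13.49 in con cells. The groups did not overlap, and the rise was 0.37 ± 0.106 (adjusted p 0.0153). The call was lost without the set block (adjusted p 0.0554) and without cc replicate 1 or 5 (adjusted p up to 0.0529). Slc48a1, which brings heme out of the phagolysosome, rose by 0.34 ± 0.102 in cc against con cells (adjusted p 0.0193), a call also lost without the block (adjusted p 0.186) and without cc replicate 2 or con replicate 2 or 4. Slc40a1, the only known cellular iron exporter, had levels of 11.13, 10.42, 10.54, 9.78 and 9.80 in CD cells and 11.40, 11.59, 10.67, 11.23 and 11.06 in con cells. The groups overlapped, and the fall of 0.86 on the log2 scale (SE 0.232, adjusted p 0.0462) was lost in 13 of 20 refits without 1 array (adjusted p up to 0.151) and without the block (adjusted p 0.312). The magnesium carrier Slc41a3 fell by 0.45 in cc against con cells (SE 0.126, adjusted p 0.0126). The zinc importer Slc39a4 rose by 0.66 ± 0.196 in CD-cc against con cells (adjusted p 0.0167), and Slc30a5, which loads zinc into the secretory pathway, fell by 0.25 (SE 0.0843, adjusted p 0.0322). Both calls were lost without the block (adjusted p 0.117 and 0.0935). The Golgi zinc carriers Slc30a6 and Slc30a7 and the zinc importers Slc39a1, Slc39a8, Slc39a10 and Slc39a14 were not called in any comparison.

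**Figure D3:**
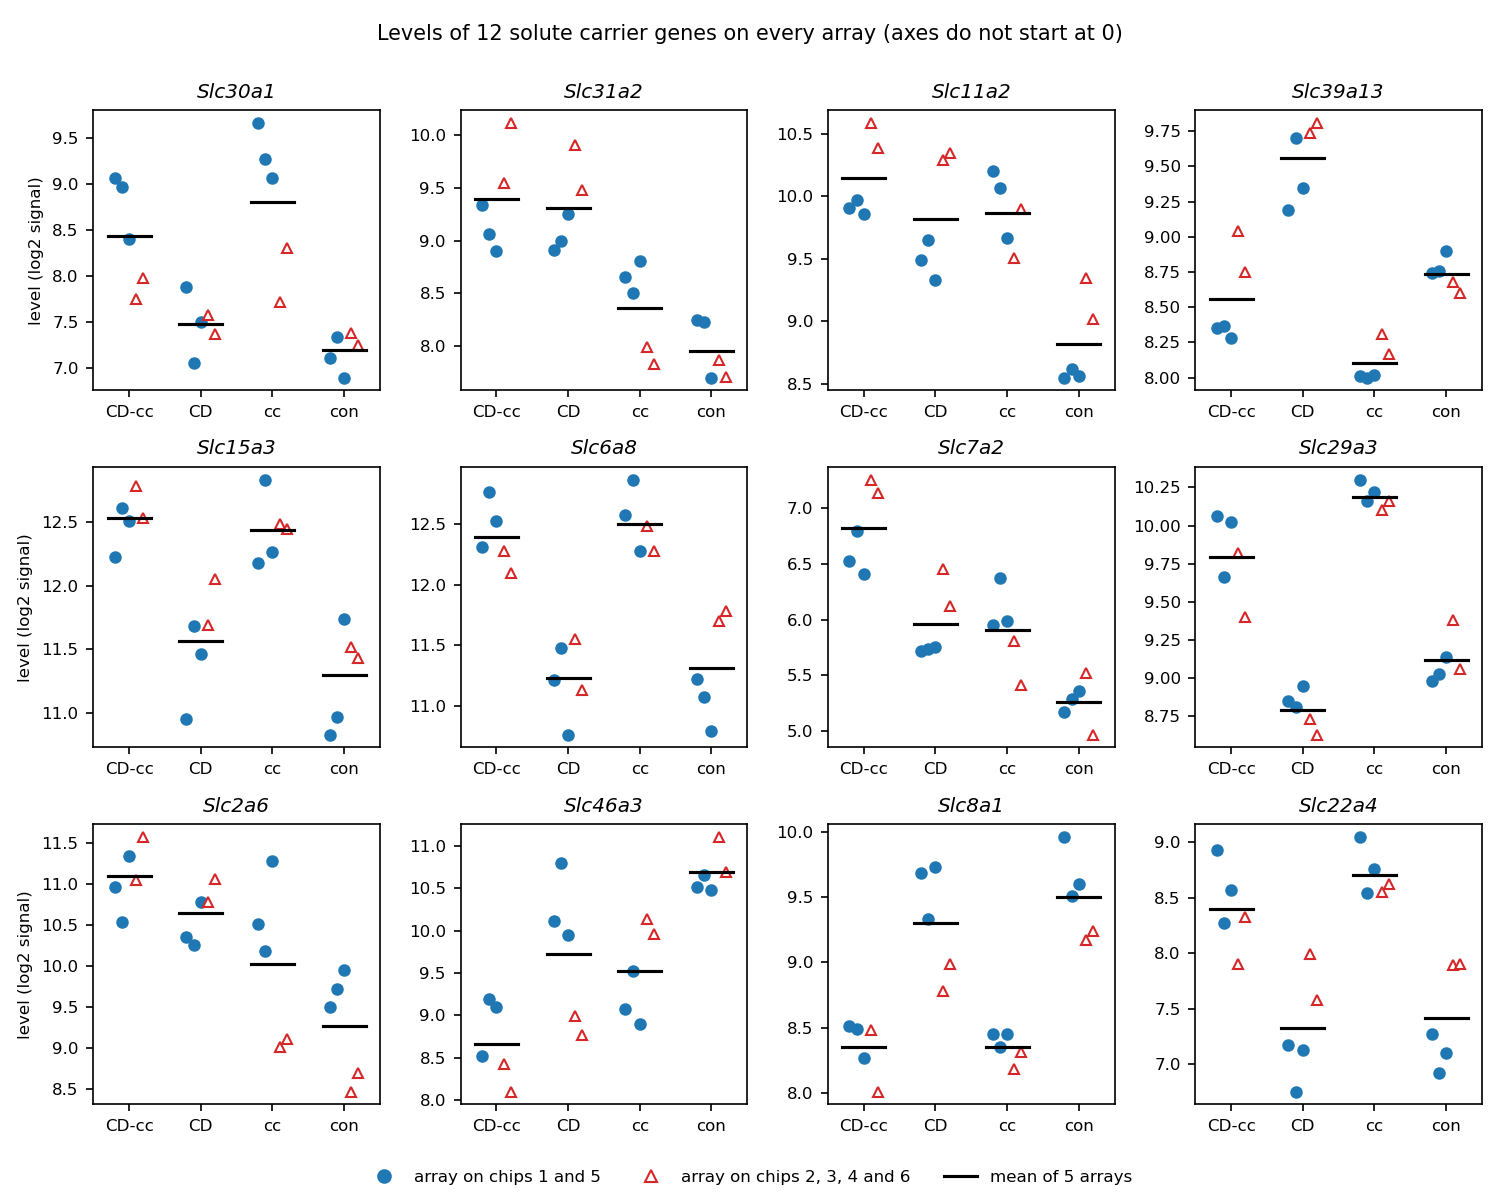
Log2 level on each array of 12 solute carrier genes, by group; filled circles are arrays on chips 1 and 5, open triangles arrays on chips 2, 3, 4 and 6, and bars are means of 5 arrays. Slc29a3 and Slc15a3 separate crystal-treated from other cells on every array, whereas Slc30a1 and Slc2a6 differ between the chips within cc cells.

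Carriers of amino acids, peptides and related amines numbered 58, of which 30 were tested. For cc against con cells, 9 rose and 3 fell, against 12.5% and 15.2% of all genes tested. The median change was 0.17 over the 30. In CD against con cells 2 rose, in CD-cc against cc cells 2 rose and 1 fell, in CD-cc against CD cells 5 rose and 1 fell, and in CD-cc against con cells 8 rose and 4 fell.

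Slc15a3, a lysosomal carrier of histidine and short peptides, had levels of 12.22, 12.61, 12.51, 12.78 and 12.53 in CD-cc cells, 10.95, 11.68, 11.46, 11.69 and 12.05 in CD cells, 12.18, 12.83, 12.26, 12.48 and 12.44 in cc cells and 10.83, 10.97, 11.74, 11.52 and 11.43 in con cells. All arrays with crystals lay above all arrays without them. The rise was 1.14 ± 0.149 in cc against con cells (adjusted p 4.24e-05) and 0.97 ± 0.149 in CD-cc against CD cells (adjusted p 0.000280). On chips 1 and 5 and the other chips these were 1.24 and 0.99 in the first and 1.08 and 0.79 in the second. Its relative Slc15a4, also lysosomal, rose by 0.52 ± 0.106 in CD against con cells (adjusted p 0.00941), a call lost without the set block (adjusted p 0.0725). In cc against con cells Slc15a4 differed by 0.20 ± 0.106, which was not called (adjusted p 0.173), and in CD-cc against cc cells by 0.18 ± 0.106 (adjusted p 0.464). A further probe detected on 20 arrays stood at 0.29 in CD against con cells and was not called.

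Slc6a8, the creatine importer, had levels of 12.31, 12.77, 12.53, 12.28 and 12.10 in CD-cc cells, 11.21, 11.48, 10.76, 11.55 and 11.13 in CD cells, 12.58, 12.87, 12.28, 12.49 and 12.28 in cc cells and 11.22, 11.07, 10.79, 11.70 and 11.78 in con cells. Again no array with crystals overlapped an array without them. The rise was 1.19 ± 0.174 in cc against con cells (adjusted p 0.000105) and 1.17 ± 0.174 in CD-cc against CD cells (adjusted p 0.000197). It was 1.55 and 1.38 on chips 1 and 5, and 0.65 and 0.84 on the other chips, where the first was not called alone.

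Slc7a2, which imports arginine and other cationic amino acids, was the only member called in all 5 comparisons. Its levels were 6.52, 6.79, 6.41, 7.25 and 7.13 in CD-cc cells, 5.72, 5.74, 5.75, 6.45 and 6.12 in CD cells, 5.95, 6.37, 5.99, 5.81 and 5.41 in cc cells and 5.17, 5.29, 5.36, 5.52 and 4.97 in con cells. CD-cc arrays stood above all cc and con arrays and overlapped the CD arrays by 1 array. The rise was 1.56 ± 0.177 in CD-cc against con cells (adjusted p 1.16e-05), 0.69 ± 0.177 in CD against con cells (adjusted p 0.0347) and 0.64 ± 0.177 in cc against con cells (adjusted p 0.0117). In CD-cc against cc cells it was 0.91 ± 0.177 (adjusted p 0.0160), with 0.47 on chips 1 and 5 against 1.58 on the remaining chips (adjusted p of the difference 0.00613). In CD-cc against CD cells it was 0.86 ± 0.177 (adjusted p 0.00267). The calls in CD against con and in CD-cc against cc cells were lost without the block (adjusted p 0.101 and 0.124). They were also lost in 7 and 4 of 20 refits without 1 array. The call in cc against con cells was lost without cc replicate 1 (adjusted p 0.0520). A further probe detected on 9 arrays was called only in CD-cc against con cells (0.46). It stood at 0.15 in cc against con, 0.00 in CD against con, 0.31 in CD-cc against cc and 0.46 in CD-cc against CD cells.

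Slc38a7 and Slc38a9 belong to the sodium-coupled neutral amino acid family and lie in the lysosome, where Slc38a7 exports glutamine and Slc38a9 senses arginine. Slc38a7 had levels of 7.76, 9.89, 7.75, 8.47 and 8.50 in cc cells and 6.82, 6.39, 7.24, 7.76 and 7.63 in con cells. The groups touched at their edge, and the array of set 2 was far above the others in cc cells. The rise was 1.31 ± 0.351 (adjusted p 0.0103), a call lost without the block (adjusted p 0.0649). Its call in CD-cc against CD cells (1.03 ± 0.351, adjusted p 0.0497) was lost in 17 of 20 refits without 1 array (adjusted p up to 0.155). Slc38a9 fell by 0.47 on the log2 scale in cc against con cells (SE 0.128, adjusted p 0.0112) and by 0.66 in CD-cc against con cells (SE 0.128, adjusted p 0.000939), and a further probe detected on 20 arrays fell with it (-0.60 and -0.56). Another probe detected on 19 arrays stood at 0.18 and 0.26 and was not called.

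Slc66a1 exports cationic amino acids from the lysosome. It had levels of 8.33, 7.68, 7.99, 7.56 and 7.61 in CD-cc cells, 7.49, 7.05, 7.55, 6.87 and 7.46 in CD cells, 8.86, 8.84, 8.96, 7.69 and 8.17 in cc cells and 8.20, 7.98, 7.68, 7.36 and 7.88 in con cells. It was higher in cc than in con cells in all 5 sets (0.68 ± 0.152, adjusted p 0.00287) and lower in CD-cc than in cc cells in all 5 sets (-0.67 ± 0.152, adjusted p 0.0326). The second call was lost without the block (adjusted p 0.389) and in 8 of 20 refits without 1 array (adjusted p up to 0.118). Slc7a8, a neutral amino acid exchanger, rose by 0.55 ± 0.107 in CD-cc against cc cells (adjusted p 0.0160), a call lost without the block (adjusted p 0.349) and without cc replicate 4 or CD-cc replicate 4 or 5. The betaine and GABA carrier Slc6a12 fell by 0.72 on the log2 scale in cc against con cells (SE 0.232, adjusted p 0.0277), a call lost without the block (adjusted p 0.289) and in 6 of 20 refits without 1 array (adjusted p up to 0.0896). The peptide importer Slc15a2 fell by 0.71 in cc against con cells (SE 0.169, adjusted p 0.00477) and was lost without the block (adjusted p 0.184). Slc32a1, the vesicular GABA carrier, was detected on 4 of 5 cc arrays and on none of the con arrays and was at least 1.32-fold higher in cc cells. It passed the filter only through groups given crystals (3 CD-cc arrays and no CD array), so its call is no support for a difference. The glutamine importer Slc38a1 rose by 0.62 ± 0.166 in CD-cc against con cells (adjusted p 0.00925), a call lost without the block (adjusted p 0.0595). It was dim and was detected on 5 CD-cc and 3 con arrays. Slc6a19, a neutral amino acid importer, rose by 0.55 ± 0.141 in cc against con cells (adjusted p 0.00768). It too was dim (mean 5.29 and 4.74) and was detected on 5 cc and 3 con arrays. The proton-coupled Slc36a1 rose by 0.41 ± 0.149 in cc against con cells (adjusted p 0.0480), which 15 of 20 refits without 1 array lost (adjusted p up to 0.161), and Slc7a4 fell by 0.40 in CD-cc against con cells (SE 0.130, adjusted p 0.0253), which was lost without the block (adjusted p 0.0575). The taurine carrier Slc6a6 and the amino acid exchangers Slc7a6, Slc7a7 and Slc43a2 were not called in any comparison.

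Carriers of nucleosides, nucleotide sugars and acetyl-CoA numbered 36, of which 24 were tested. Between cc and con cells, 2 rose and 4 fell, in CD against con and in CD-cc against cc cells 1 rose each, in CD-cc against CD cells 2 rose and 2 fell, and in CD-cc against con cells 3 rose and 5 fell. Slc29a3, the lysosomal nucleoside exporter, had the lowest adjusted p of all members in cc against con cells. Its levels were 10.06, 9.66, 10.02, 9.82 and 9.40 in CD-cc cells, 8.85, 8.81, 8.95, 8.73 and 8.63 in CD cells, 10.30, 10.16, 10.22, 10.10 and 10.16 in cc cells and 8.98, 9.03, 9.14, 9.38 and 9.06 in con cells. All crystal arrays lay above all arrays without crystals. The rise was 1.07 ± 0.106 in cc against con cells (adjusted p 3.38e-06; 1.18 on chips 1 and 5, 0.91 on the others) and 1.00 ± 0.106 in CD-cc against CD cells (adjusted p 7.25e-06; 1.04 and 0.93). Both calls held under each of the 12 other settings tried. The difference in CD-cc against cc cells was -0.40 ± 0.106 (adjusted p 0.0690).

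Slc28a2b, a sodium-coupled nucleoside carrier by its family, was higher with cyclodextrin. It had levels of 5.16, 5.66, 5.58, 6.08 and 6.54 in CD-cc cells, 5.98, 5.92, 5.77, 6.87 and 7.06 in CD cells, 4.36, 5.23, 4.70, 5.32 and 5.27 in cc cells and 5.19, 4.36, 5.07, 5.47 and 5.83 in con cells. The groups overlapped, but every set was higher in CD than in con cells and in CD-cc than in cc cells. The rise was 1.14 ± 0.179 in CD against con cells (adjusted p 0.00177) and 0.83 ± 0.179 in CD-cc against cc cells (adjusted p 0.0270). Both calls were lost without the set block (adjusted p 0.0923 and 0.431), and the second in 8 of 20 refits without 1 array. Slc28a2 is a near relative in sequence, and whether the probe also reads its RNA was not tested.

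The Slc35 members were put in this class by gene family. Slc35b2, which imports the sulfate donor PAPS into the Golgi, fell by 0.47 on the log2 scale in cc against con cells (SE 0.109, adjusted p 0.00404). Slc35a1, the CMP-sialic acid carrier, fell by 0.57 (SE 0.151, adjusted p 0.00885). Slc35e1 fell by 0.35 in cc against con cells (SE 0.0878, adjusted p 0.00612) and by 0.51 in CD-cc against CD cells (SE 0.0878, adjusted p 0.000643). Slc35f6 rose by 0.66 ± 0.125 in cc against con cells (adjusted p 0.000930) and by 0.47 ± 0.125 in CD-cc against CD cells (adjusted p 0.0151). Slc35a5 fell by 0.61 in CD-cc against con cells (SE 0.0943, adjusted p 0.000138), and Slc35e2 by 0.60 (SE 0.220, adjusted p 0.0449), which was lost without the block (adjusted p 0.0938). The plasma membrane nucleoside carrier Slc29a1, the endoplasmic reticulum carrier Slc35b1 and the acetyl-CoA carrier Slc33a1 were not called in any comparison.

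Sugar carriers, a class set by gene family, numbered 32, of which 15 were tested. The class holds Slc5a6 and Slc5a12, and whether every member carries sugars was not tested. For cc against con cells, 1 rose and 2 fell, in CD against con cells 1 rose, in CD-cc against cc cells 1 fell, in CD-cc against CD cells none was called, and in CD-cc against con cells 1 rose and 1 fell. Slc2a6, a hexose carrier of the lysosomal membrane, had levels of 10.97, 10.54, 11.34, 11.05 and 11.58 in CD-cc cells, 10.36, 10.26, 10.79, 10.78 and 11.06 in CD cells, 10.51, 10.19, 11.29, 9.02 and 9.11 in cc cells and 9.50, 9.72, 9.95, 8.47 and 8.70 in con cells. All CD-cc and CD arrays lay above all con arrays, and the cc and con arrays of sets 4 and 5 were the lowest of all. The change was 1.83 ± 0.322 in CD-cc against con cells (adjusted p 0.000423), with 1.23 on chips 1 and 5 against 2.73 on the remaining chips (adjusted p of the difference 0.00260). It was 1.38 ± 0.322 in CD against con cells (adjusted p 0.0215), with 0.75 and 2.33 on these chips (adjusted p of the difference 0.00173). The call in CD cells was lost without the block (adjusted p 0.0853) and without CD replicate 1 or 5 or con replicate 2 or 3 (adjusted p up to 0.0960). In cc against con cells the difference was 0.76 ± 0.322 (adjusted p 0.0919).

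Slc37a2, which exchanges glucose-6-phosphate for phosphate in the endoplasmic reticulum, had levels of 10.39, 10.84, 10.58, 10.25 and 9.99 in CD-cc cells, 11.05, 11, 11.13, 10.38 and 10.14 in CD cells, 10.31, 10.53, 10.55, 10.98 and 10.76 in cc cells and 11.26, 11.31, 11.04, 11.36 and 11.27 in con cells. The CD-cc and cc arrays all lay below the con arrays. It fell by 0.84 on the log2 scale in CD-cc against con cells (SE 0.183, adjusted p 0.00220) and by 0.62 in cc against con cells (SE 0.183, adjusted p 0.0173). The second call was lost without cc replicate 1, 2 or 5 or con replicate 2 (adjusted p up to 0.0673). The glucose importer Slc2a3 fell by 0.52 in cc against con cells (SE 0.139, adjusted p 0.00967), a call lost without the block (adjusted p 0.186). Slc45a3, assigned to sugars by its family, was detected on 5 cc, 3 CD-cc, 2 con and 0 CD arrays. It thus passed the filter only through groups given crystals, and its calls are no support for a difference. Its level was 0.81 ± 0.148 higher in cc than in con cells (limma adjusted p 0.000659), with 1.18 on chips 1 and 5 and 0.26 on the others. It was lower in CD-cc than in cc cells (-0.60 ± 0.148, adjusted p 0.0490). There 16 of 20 refits without 1 array lost the call (adjusted p up to 0.161). The sugar carriers Slc2a8, Slc2a9 and Slc37a4 were not called in any comparison.

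Carriers of inorganic ions and protons numbered 45, of which 17 were tested. Between cc and con cells, 3 rose and 5 fell, in CD against con cells 1 fell, in CD-cc against cc cells none was called, in CD-cc against CD cells 1 rose and 4 fell, and in CD-cc against con cells 2 rose and 5 fell. Slc8a1, which exchanges sodium for calcium at the plasma membrane, had levels of 8.51, 8.49, 8.27, 8.48 and 8.01 in CD-cc cells, 9.68, 9.33, 9.73, 8.78 and 8.99 in CD cells, 8.45, 8.35, 8.45, 8.18 and 8.31 in cc cells and 9.96, 9.51, 9.60, 9.17 and 9.24 in con cells. All arrays with crystals lay below all arrays without them. It fell by 1.15 on the log2 scale in cc against con cells (SE 0.130, adjusted p 1.13e-05) and by 0.95 in CD-cc against CD cells (SE 0.130, adjusted p 9.63e-05). The changes were -1.28 and -1.16 on chips 1 and 5, and -0.96 and -0.64 on the other chips. A further probe, detected on 8 arrays, differed by -0.08 and 0.13 and was not called.

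Slc8b1, the sodium-calcium exchanger of the inner mitochondrial membrane, had levels of 11.65, 11.57, 11.59, 10.92 and 10.95 in CD-cc cells, 10.87, 10.60, 10.97, 10.34 and 9.95 in CD cells, 11.79, 11.64, 11.86, 11.14 and 11.07 in cc cells and 11.12, 11.23, 11.20, 10.75 and 10.68 in con cells. Levels differed between the chips in every group, and within each set the order was cc, CD-cc, con and CD. It rose by 0.79 ± 0.0895 in CD-cc against CD cells (adjusted p 1.55e-05) and by 0.50 ± 0.0895 in cc against con cells (adjusted p 0.000533), and fell by 0.45 in CD against con cells (SE 0.0895, adjusted p 0.00887). Only the first held without the set block (adjusted p 0.0230), and the others were lost (adjusted p 0.117 and 0.472). Slc24a3, another calcium exchanger of the plasma membrane, fell by 0.44 in cc against con cells (SE 0.0980, adjusted p 0.00279). The potassium-chloride carrier Slc12a4 fell by 0.73 in CD-cc against CD cells (SE 0.120, adjusted p 0.000483) and by 0.35 in cc against con cells, where it was lost without the block (adjusted p 0.104) and in 5 of 20 refits without 1 array (adjusted p up to 0.125). It was dim and was detected on 3 CD-cc, 5 CD, 3 cc and 5 con arrays. The sodium-potassium-chloride carrier Slc12a2 rose by 0.41 ± 0.107 in cc against con cells (adjusted p 0.00863), a call lost without the block (adjusted p 0.175). The endosomal sodium-proton exchanger Slc9a9 fell by 0.56 in cc against con cells (SE 0.174, adjusted p 0.0232), a call lost without the block (adjusted p 0.318) and in 5 of 20 refits without 1 array (adjusted p up to 0.0819). Slc12a9 fell by 0.53 in CD-cc against con cells (SE 0.114, adjusted p 0.00201), where a further probe detected on 20 arrays stood at -0.14 and was not called. The anion exchanger Slc4a3 rose by 0.67 ± 0.158 in cc against con cells (adjusted p 0.00449). There a further probe detected on 9 arrays also rose (0.48, limma adjusted p 0.024). Another detected on 13 arrays stood at -0.07 and was not called. The Slc4a3 probe used was dim and was detected on 5 cc and 3 con arrays.

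Carriers of vitamins, choline, lipids and organic ions numbered 61, of which 22 were tested. For cc against con cells, 4 rose and 3 fell, in CD-cc against CD cells 2 rose and 1 fell, and in CD-cc against con cells 3 rose and 2 fell. None was called in CD against con or in CD-cc against cc cells. Slc46a3, a protein of the lysosomal membrane related to the folate carrier Slc46a1, had levels of 8.52, 9.19, 9.10, 8.43 and 8.10 in CD-cc cells, 10.12, 10.80, 9.95, 8.99 and 8.77 in CD cells, 9.08, 9.52, 8.90, 10.14 and 9.96 in cc cells and 10.52, 10.66, 10.48, 11.11 and 10.69 in con cells. All CD-cc and cc arrays lay below all con arrays. It fell by 2.03 on the log2 scale in CD-cc against con cells (SE 0.319, adjusted p 0.000174), with -1.62 on chips 1 and 5 against -2.63 on the remaining chips (adjusted p of the difference 0.0358). It fell by 1.17 in cc against con cells (SE 0.319, adjusted p 0.0111), with -1.39 and -0.85 on these chips. It fell by 1.06 in CD-cc against CD cells (SE 0.319, adjusted p 0.0283), where 6 of 20 refits without 1 array lost the call (adjusted p up to 0.106). In CD against con cells the difference was -0.97 ± 0.319 (adjusted p 0.106), with -0.26 on chips 1 and 5 against -2.02 on the remaining chips.

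Slc22a4, which carries organic cations and ergothioneine, had levels of 8.93, 8.27, 8.57, 7.90 and 8.33 in CD-cc cells, 7.17, 6.75, 7.13, 7.99 and 7.58 in CD cells, 9.05, 8.54, 8.76, 8.55 and 8.62 in cc cells and 7.27, 6.92, 7.10, 7.89 and 7.90 in con cells. The cc arrays all lay above the con arrays, and the CD-cc and CD arrays overlapped in set 4. The rise was 1.29 ± 0.214 in cc against con cells (adjusted p 0.000306), with 1.69 on chips 1 and 5 against 0.69 on the remaining chips (adjusted p of the difference 0.0353). It was 1.08 ± 0.214 in CD-cc against CD cells (adjusted p 0.00219), with 1.57 and 0.34 on these chips (adjusted p of the difference 0.0220). The fatty acid carrier Slc27a1 rose by 0.75 ± 0.177 in CD-cc against CD cells (adjusted p 0.00679) and by 0.59 ± 0.177 in cc against con cells (adjusted p 0.0196). Both calls were lost without the block (adjusted p 0.0673 and 0.120), and the second without cc replicate 1 or con replicate 1 or 5. The carnitine carrier Slc22a5, a relative of Slc22a4, fell by 0.37 in cc against con cells (SE 0.115, adjusted p 0.0234), which was lost without the block (adjusted p 0.0924) and without cc replicate 1 or 5 or con replicate 1 or 5 (adjusted p up to 0.0873). A further Slc22a5 probe detected on 20 arrays also fell (-0.35, limma adjusted p 0.0334). Another detected on 10 arrays stood at 0.23 and was not called.

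Slc47a1, an exporter of organic cations, was detected on all 5 cc arrays and on no con array and was at least 1.44-fold higher in cc cells. It was also detected on 3 CD-cc arrays and on no CD array, so it passed the filter only through groups given crystals, and its call is no support for a difference. The ascorbate carrier Slc23a2 rose by 0.62 ± 0.201 in cc against con cells (adjusted p 0.0278), a call lost without the block (adjusted p 0.0510) and in 6 of 20 refits without 1 array (adjusted p up to 0.0976). A further Slc23a2 probe detected on 20 arrays stood at 0.14 and was not called. The riboflavin carrier Slc52a3 fell by 0.65 in cc against con cells (SE 0.155, adjusted p 0.00473). It was dim and was detected on 4 cc and 5 con arrays. The choline carrier Slc44a1 rose by 0.33 ± 0.116 in CD-cc against con cells (adjusted p 0.0375), a call lost without the block (adjusted p 0.0819) and in 7 of 20 refits without 1 array. Of 3 further probes 1 stood at 0.30 and the others at -0.18 and -0.17, none of them called. The folate and thiamine carriers Slc19a1 and Slc19a2, Slc27a4 and Slc44a2 were not called in any comparison.

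Carriers of phosphate, sulfate and carboxylates, a class set by gene family, numbered 32, of which 11 were tested. Between cc and con cells, 2 fell, in CD against con cells 2 rose, in CD-cc against cc cells 1 rose, in CD-cc against CD cells 1 fell, and in CD-cc against con cells 1 rose and 1 fell. Slc16a10 belongs to the monocarboxylate family but carries aromatic amino acids. Its levels were 8.11, 8.56, 8.07, 8.99 and 8.69 in CD-cc cells, 8.59, 9.04, 8.36, 9.42 and 9.51 in CD cells, 7.65, 8.14, 7.66, 8.01 and 8.0 in cc cells and 8.19, 8.24, 8.43, 8.49 and 8.46 in con cells. All cc arrays lay below all con and all CD arrays, and the other pairs of groups overlapped. It rose by 0.62 ± 0.137 in CD against con cells (adjusted p 0.0152) and by 0.59 ± 0.137 in CD-cc against cc cells (adjusted p 0.0386), and fell by 0.47 in cc against con cells (SE 0.137, adjusted p 0.0171) and by 0.50 in CD-cc against CD cells (SE 0.137, adjusted p 0.0170). None of the 4 calls held without the set block (adjusted p 0.208, 0.399, 0.136 and 0.149), and refits without 1 array lost them in 4, 10, 3 and 1 of 20 cases.

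Slc13a3, a dicarboxylate carrier, had levels of 7.06, 8.18, 6.94, 6.14 and 6.28 in CD cells and 6.51, 6.72, 7.04, 5.00 and 4.81 in con cells. The groups overlapped, and the rise was 0.90 ± 0.203 (adjusted p 0.0180), lost without the block (adjusted p 0.609) and in 5 of 20 refits without 1 array (adjusted p up to 0.0748). Slc13a2, another dicarboxylate carrier, fell by 0.58 in cc against con cells (SE 0.144, adjusted p 0.00641). It was dim and was detected on 3 cc and 5 con arrays. The lactate carrier Slc16a3, the phosphate importer Slc20a1, the lysosomal sialic acid exporter Slc17a5 and Slc16a6 were not called in any comparison. The lactate carrier Slc16a1 did not pass the detection filter.

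The rule also took in 5 genes that share the symbol but are no carriers, of which 3 were tested. Slc9a3r1, a scaffold protein beneath the membrane, rose by 0.53 ± 0.191 in cc against con cells (adjusted p 0.0469), a call lost without the block (adjusted p 0.226) and in 11 of 20 refits without 1 array (adjusted p up to 0.146).

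Carriers and partners outside the Slc symbols were set beside these genes from a list of 32, of which 26 were tested. For cc against con cells, 8 rose and 3 fell, against 12.5% and 15.2% of all genes tested. In CD-cc against CD cells 7 rose and 3 fell, against 8.46% and 10.1%. In CD against con cells 1 rose and 1 fell, and in CD-cc against cc cells none was called. In CD-cc against con cells 8 rose and 4 fell. Among them the lysosomal chloride-proton exchanger Clcn7 rose by 1.32 ± 0.187 (adjusted p 8.26e-05), the lysosomal cystine exporter Ctns by 0.87 ± 0.157 (adjusted p 0.000614) and the heme exporter Flvcr1 by 0.83 ± 0.173 (adjusted p 0.00172) in cc against con cells. The organic anion carrier Slco2b1 fell by 1.73 on the log2 scale in cc against con cells (SE 0.352, adjusted p 0.00149) and by 1.63 in CD against con cells (SE 0.352, adjusted p 0.0135).

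**Figure D4:**
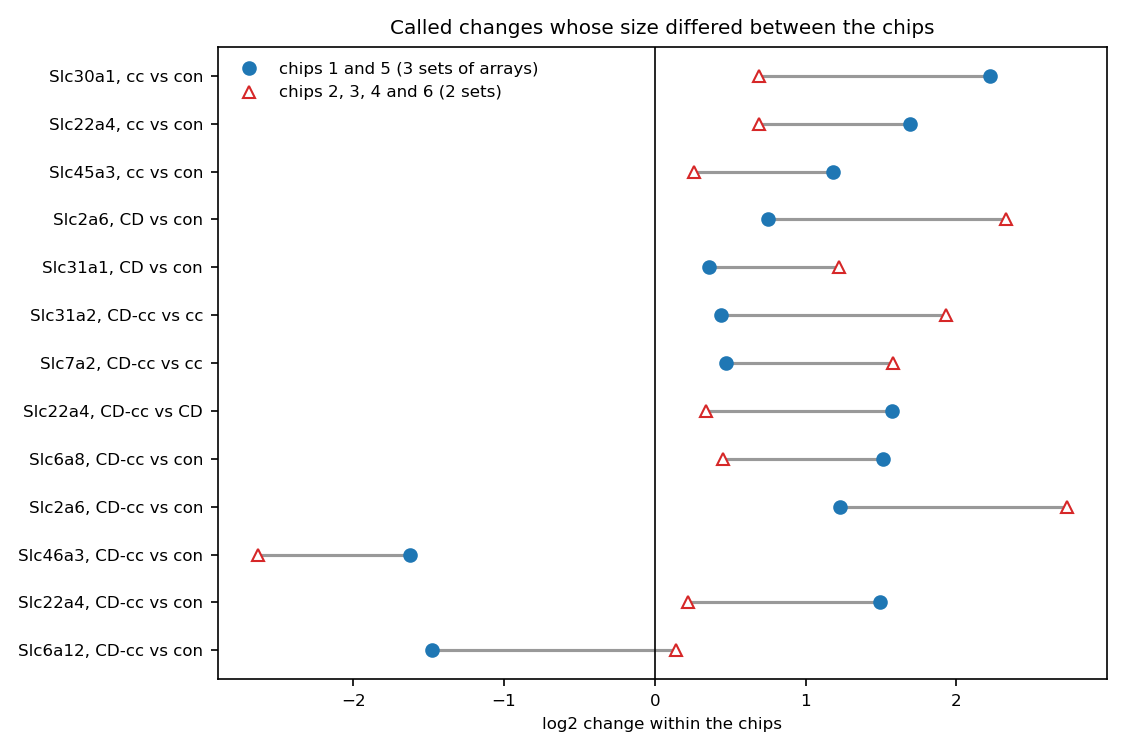
The 13 called changes whose size differed between chips 1 and 5 (filled circles) and chips 2, 3, 4 and 6 (open triangles), with the log2 change within each group of chips on the horizontal axis. Slc30a1 and Slc22a4 rose more on chips 1 and 5 in cc against con cells, Slc2a6 and Slc31a1 more on the other chips in CD against con cells, and Slc6a12 in CD-cc against con cells had opposite signs.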

How the data were processed

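RNA of 20 macrophage samples was measured on Illumina bead arrays, 5 in each of 4 groups. The deposited bead table holds an intensity (average bead signal) and a detection p-value per probe and array, per the file headers, not yet normalised. The deposited value table holds log2 values of the same arrays made by the authors, with Partek named in the submitters' processing notes. Recomputing them showed quantile normalisation with the mean of each set of 4 arrays removed (SD of the difference 6.97e-05), and its column medians were 6.71 to 6.72.

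Background correction, quantile normalisation and log2 were done with neqc in limma 3.58.1 (R 4.3.3, offset 16). A probe was kept when its detection p was below 0.05 on at least 5 arrays, which left 18348 probes, 15671 of them with 1 gene symbol, and the brightest probe stood for each of 10018 genes. Of 45281 probes, 34885 had 1 symbol, 18 several and 10378 none. The fit held the 4 groups and the set of arrays as a block, with two-sided tests and Benjamini-Hochberg adjustment over all genes. The script was tested on simulated data. The sets were found by which grouping made the means of the value table constant (625 candidates), not from the labels.

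The members, classes and lists were chosen with earlier results of these data known. Named were the 12 largest called rises and falls per comparison and a fixed list of members; other called genes were named after their values were seen. Other settings tried were no block, the replicate number or chip as block, other normalisations and filters, all probes, each group of chips, only the groups compared and leaving out each array. Same-numbered replicates did not vary together (correlation of deviations -0.56 to 0.65, median -0.20, 30 pairs), whereas arrays of a set did (-0.08 to 0.74, median 0.53). Every set lay within a single group of chips, whereas same-numbered replicates often did not. These correlations therefore cannot tell the set from the group of chips and are no test of the set as a pairing.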

Additional observations from a re-analysis of the deposited data

Results flagged for a closer look

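Among 240 groups of 5 arrays of called members, 7 (2.92%) had 1 array set apart from the others by the gap test of Dixon, which by chance marks about 1 in 20 groups. In cc cells these were Slc30a5 in set 1 (10.41, next array 10.12), Slc31a1 in set 2 (10.49, next 10.08), Slc35b2 in set 3 (10.49, next 10.22) and Slc9a3r1 in set 2 (11.25, next 10.49). In CD-cc cells they were Slc4a3 in set 5 (4.78, next 5.52) and Slc7a8 in set 1 (10.47, next 11.19). In CD cells it was Slc35a1 in set 1 (6.30, next 5.87).

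In 13 of 137 called changes the size differed between chips 1 and 5 and chips 2, 3, 4 and 6 by a limma test of the difference. In cc against con cells these were Slc30a1 (2.22 and 0.69, adjusted p 0.0298), Slc22a4 (1.69 and 0.69, adjusted p 0.0353) and Slc45a3 (1.18 and 0.26, adjusted p 0.0353). In CD against con cells they were Slc2a6 (0.75 and 2.33, adjusted p 0.00173) and Slc31a1 (0.36 and 1.22, adjusted p 0.0246). In CD-cc against cc cells they were Slc31a2 (0.44 and 1.93, adjusted p 0.0193) and Slc7a2 (0.47 and 1.58, adjusted p 0.00613), and in CD-cc against CD cells Slc22a4 (1.57 and 0.34, adjusted p 0.0220). In CD-cc against con cells they were Slc6a8 (1.51 and 0.45, adjusted p 0.0201), Slc2a6 (1.23 and 2.73, adjusted p 0.00260), Slc46a3 (-1.62 and -2.63, adjusted p 0.0358), Slc22a4 (1.49 and 0.22, adjusted p 0.00406) and Slc6a12 (-1.48 and 0.14, adjusted p 0.00496). Chip and the Xist and Eif2s3y levels moved together, and their part in these differences cannot be told apart.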

How the results depend on the processing

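Counts of called members are given for cc against con, CD against con, CD-cc against cc, CD-cc against CD and CD-cc against con cells, in that order, and were 47, 12, 7, 25 and 46. They were 28, 3, 0, 15 and 29 without the set block, 25, 3, 0, 14 and 29 with the replicate number as a block, 29, 4, 0, 4 and 19 with the chip as a block, and 19, 5, 0, 9 and 20 with scale normalisation. In CD-cc against cc cells 4 were called with quantile normalisation without background correction, 4 in the authors' table, 2 without the detection filter, 4 with only the groups compared, 0 on chips 1 and 5 and 19 on the remaining ones. Where limma called 0 there, 20, 21, 11, 17 and 18 members had an unadjusted p below 0.05 without the block, with the replicate block, with the chip block, with scale normalisation and on chips 1 and 5. In CD against con cells 2 were called on chips 1 and 5 and 4 with only the groups compared. On chips 2, 3, 4 and 6, which hold fewer arrays, 8 were called in cc against con, 18 (11 higher, 7 lower) in CD against con, 10 in CD-cc against CD and 22 in CD-cc against con cells. The sign of Slc6a12 in CD-cc against con cells turned there (0.14). Without 1 array the counts were 38 to 48, 6 to 14, 0 to 7, 16 to 32 and 39 to 49. The interaction had 0 calls in limma under every setting tried, leaving out 1 array included, with 2 to 18 members at an unadjusted p below 0.05 under the other settings. Of 2740 refits of the 137 changes without 1 array, 2452 kept the call, 288 lost it and 0 turned. No share of all genes is given beside these counts. Whether the shifts were particular to members, and their cause, was not tested. Same-numbered replicates often lay on different groups of chips and did not vary together. Of the 137 called changes, 66 were lost with the replicate block and 62 without a block. Why the replicate block lost calls was not tested. Scale normalisation moved the median of all genes to 0.03 in cc against con cells. Dim probes near background limit the size of changes.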
